A study of Mus musculus with 4 samples.

Results

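Nascent transcription of basement membrane and collagen maturation genes was compared between mouse embryonic stem (ES) cells mutant for Supt3 and wild-type ES cells. The genes were chosen by symbol, with earlier results of these data known. They were Col4a1, Col4a2, Lama1, Lamb1, Lamc1, Nid1, Hspg2, Sparc, P4ha1 and Serpinh1, and all 10 were present among the 54146 mouse genes of the deposited tables. The KO group held 2 libraries of cells with the genotype Supt3 KO and the WT group 2 libraries of cells with the genotype Supt3 WT. All 4 came from ES cells in medium with LIF and serum, and all went through TT-seq, in which RNA made in the presence of 4-thiouridine (4SU) is purified and sequenced. S. pombe, a fission yeast, supplied labelled spike-in RNA. Supt3 encodes a subunit of SAGA, a coactivator complex of RNA polymerase II transcription. The labels describe neither the mutant allele nor the number of clones, and they do not say whether libraries of the same genotype came from separate cultures. A p-value here therefore sets the difference between genotypes against the variation among these libraries, and that variation may be technical.

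Basement membranes are thin sheets of extracellular matrix under epithelia and around other cells. Laminin, a trimer of an alpha, a beta and a gamma chain, and collagen IV, a trimer in which Col4a1 and Col4a2 chains pair, each form a network, and nidogen and the proteoglycan perlecan bind to both. Collagen chains are hydroxylated on prolines and held by a dedicated chaperone in the endoplasmic reticulum before they are secreted. In the early mouse embryo this matrix separates the epiblast from the primitive endoderm, and the parietal endoderm that derives from the primitive endoderm lays down Reichert's membrane, a thick sheet rich in laminin and collagen IV.

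The libraries held 13.1 and 18.4 M mouse counts in KO and 13.5 and 19.4 M in WT (M, 1e6), beside 4.84 and 3.79 M S. pombe counts in KO and 4.16 and 3.46 M in WT. Supt3 itself stood at 123 and 140 CPM in KO and at 147 and 158 CPM in WT. CPM are counts per 1e6 mouse counts after TMM scaling (trimmed mean of M-values), and log2 fold changes are of KO over WT throughout. That of Supt3, -0.22 ± 0.10 (SE), did not pass edgeR's quasi-likelihood test (adjusted p = 0.232; 0.0467 without KO replicate 2). The count sums over the gene and cannot tell an intact from a disrupted transcript, so it is no check of the genotype. Of 14 ES cell markers, 13 were expressed in both genotypes, and Sox2 was listed at 0 in every library. The annotated Sox2 gene lies within the span of Sox2ot, to which 3187 and 4568 counts were assigned in KO and 4824 and 6210 in WT. The summed level of the ES cell markers was 1853 and 2072 CPM in KO and 2559 and 2550 CPM in WT. Most of that drop lay in Esrrb (mean 334 CPM in KO, 577 in WT) and Zfp42 (336 and 516), named after their values were seen. Neither of them passed (edgeR, adjusted p = 0.0682 and 0.0639). At an adjusted p under 0.05, 4 of the 13 fell, namely Klf4, Fgf4, Klf2 and Nanog, as did 4.02% of all tested genes. Pou5f1 (0.12 ± 0.10), Dppa4 (0.19 ± 0.10) and Tdgf1 (0.041 ± 0.14) had positive log2 fold changes and did not pass. Utf1 (-0.028 ± 0.10), Dppa5a (-0.027 ± 0.14), Lin28a (-0.057 ± 0.12) and Sall4 (-0.23 ± 0.11) did not pass either. These genes too were named after their values were seen.

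Nascent RNA of 8 of the 10 genes rose in KO relative to the bulk of transcripts: both collagen IV chains, the 3 laminin chains, Sparc and the collagen maturation genes P4ha1 and Serpinh1. Nid1 fell, and Hspg2 did not pass the test. All 10 passed the filter on low counts. A gene was called where edgeR's quasi-likelihood test over all 16789 tested genes gave a Benjamini-Hochberg adjusted p under 0.05, and that test called 4.05% of all tested genes higher and 4.02% lower (8.07% in either direction). The median log2 fold change of the 10 genes was 0.76, against 0.0065 over all tested genes. Because the 10 were chosen with earlier results of these data known, their contrast with all genes is a description and not a test. Both KO libraries stood above both WT libraries in CPM for 9 of the 10, as they did for 26.7% of all tested genes, and both stood below for Nid1, as for 26.0%. That separation by itself fixes the sign of each of the 10 genes, both within the pair of libraries with fewer counts and within the pair with more. Without WT replicate 2 the number called was 6 (4.78% of all tested genes in that fit), with Lamc1, Nid1 and P4ha1 no longer past the threshold. In bulk samples, more cells of one type and more RNA per cell cannot be told apart.

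**Figure D1:**
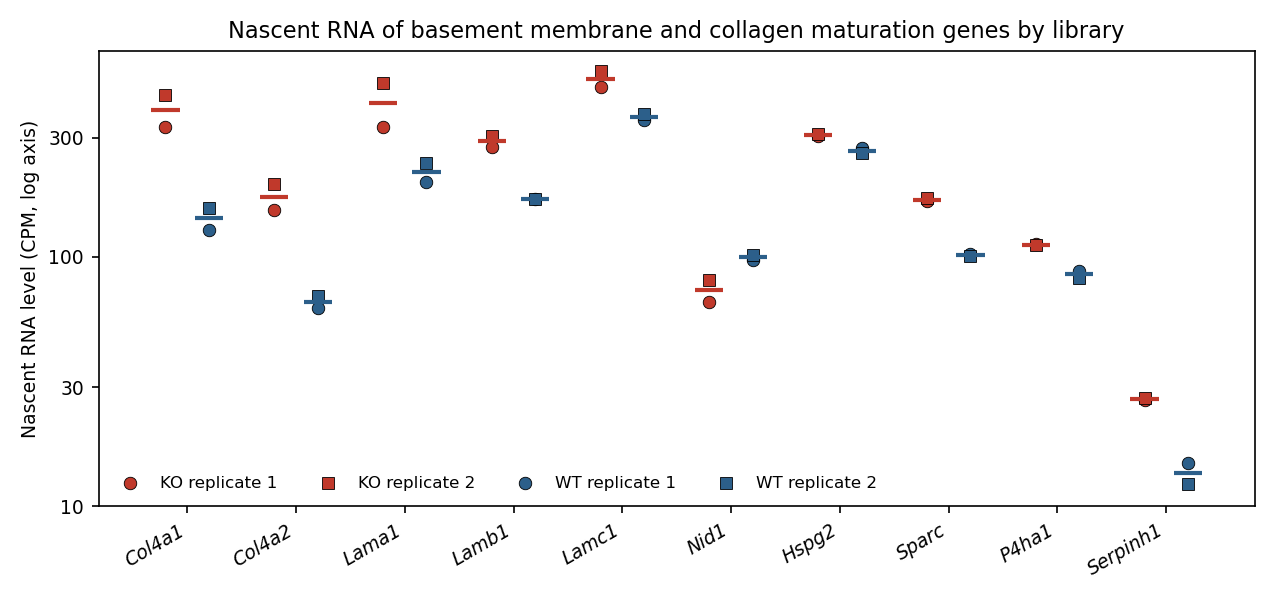
Nascent RNA level of each gene in every library (CPM, log axis), with KO in red on the left and WT in blue on the right; circles are replicate 1, squares replicate 2 and bars the mean of 2 libraries. The KO points lie above the WT points for every gene except Nid1, with the widest separation at Col4a1 and Col4a2 and the narrowest at Hspg2.

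The collagen IV genes showed the largest changes of the set. Col4a1 (ENSMUSG00000031502) and Col4a2 (ENSMUSG00000031503) lie head to head on chromosome 8 of mm10. Col4a1 spans chr8:11198423-11312826 on the minus strand and Col4a2 spans chr8:11312805-11449287 on the plus strand, so that their annotated first exons overlap by 22 bases. RefSeq promoter windows of 300 bases, with 250 before and 50 after the annotated start, were available for 8 of the 10 genes (GRCm38.p6). The windows of this pair are shown because the genes are transcribed away from each other out of one shared stretch, and capitals mark matches to the motifs named further on.
Col4a1, chr8:11312777-11313076, minus strand: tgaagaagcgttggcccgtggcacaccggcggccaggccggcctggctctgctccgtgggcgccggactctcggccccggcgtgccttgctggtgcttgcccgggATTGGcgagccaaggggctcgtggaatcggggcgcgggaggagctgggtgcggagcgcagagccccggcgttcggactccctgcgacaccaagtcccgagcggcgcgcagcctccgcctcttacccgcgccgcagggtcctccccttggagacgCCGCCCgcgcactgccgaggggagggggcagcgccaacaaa
Col4a2, chr8:11312555-11312854, plus strand: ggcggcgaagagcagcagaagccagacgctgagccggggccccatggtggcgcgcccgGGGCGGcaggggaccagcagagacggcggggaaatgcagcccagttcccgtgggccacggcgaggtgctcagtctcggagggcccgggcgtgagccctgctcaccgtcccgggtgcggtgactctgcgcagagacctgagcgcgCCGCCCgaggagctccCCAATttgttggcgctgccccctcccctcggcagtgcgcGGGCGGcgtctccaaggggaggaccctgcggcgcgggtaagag
Both are read 5′ to 3′ in the direction of their own gene, and they share 78 bases. The motifs searched, on both strands and with overlaps allowed, were GGGCGG, known as the GC box, then CCAAT, which is bound by the factor NF-Y, then TATAAA, the core promoter element bound by TBP, then AGATAA for GATA factors, then AACAAT for Sox factors, and finally TGANTCA for AP-1 factors. Of all 32851 promoters in the RefSeq table, 35.7% hold GGGCGG, 37.4% CCAAT, 13.6% TATAAA, 11.2% AGATAA, 10.7% AACAAT and 7.81% TGANTCA. The Col4a1 window has 1 GGGCGG and 1 CCAAT match, and the Col4a2 window has 3 GGGCGG and 1 CCAAT match. One GGGCGG match, at chr8:11312812-11312817, lies in the bases that the windows share. Neither holds any of the other 4 motifs, and their GC content is 74.0% for Col4a1 and 73.7% for Col4a2, against a median of 52.7% over all promoters. A match is a description of the letters, not a bound site.

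Col4a1, the chain that takes the larger part in the collagen IV trimer, stood at 330.1 and 445 CPM in the KO libraries and at 128 and 158 CPM in the WT libraries. The lowest KO library was above the highest WT library by more than the gap within either genotype. Its mean was 387 ± 81.0 CPM in KO and 143 ± 21.1 CPM in WT (SD, n = 2 each), a log2 fold change of 1.44 ± 0.16 (edgeR, adjusted p = 0.00190). Col4a2, the partner chain, stood at 154 and 195 CPM in KO and at 62.4 and 69.6 CPM in WT, again without overlap. Its mean was 175 ± 29.7 CPM in KO and 66.0 ± 5.07 CPM in WT (SD, n = 2 each), with a log2 fold change of 1.40 ± 0.13 (edgeR, adjusted p = 0.00109). In raw counts Col4a1 had 4457 and 7937 in KO and 1747 and 3020 in WT, and Col4a2 had 2073 and 3490 in KO and 853 and 1333 in WT. Within the library pairs with fewer and with more counts, the log2 ratio of KO to WT was 1.37 and 1.50 for Col4a1 and 1.30 and 1.49 for Col4a2. These log2 fold changes were larger than those of 99.4% and 99.3% of all tested genes.

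The balance between the chains can be read from the counts. The ratio of Col4a1 counts to Col4a2 counts, not corrected for length, was 2.15 and 2.27 in KO and 2.05 and 2.27 in WT, and the genotypes overlapped. The other collagen IV chain genes, picked out after their values were seen, gave no call. Col4a5 averaged 3.42 ± 0.40 CPM in KO and 3.39 ± 0.59 CPM in WT (log2 fold change 0.019 ± 0.26). Col4a6 averaged 4.30 ± 0.62 CPM in KO and 2.65 ± 0.020 CPM in WT (SD, n = 2 each, log2 fold change 0.69 ± 0.25, edgeR adjusted p = 0.133). Col4a3 had 5 and 3 counts in KO and 1 and 4 in WT, Col4a4 had 6 and 9 in KO and 13 and 7 in WT, and neither passed the filter on low counts.

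The laminin chains Lama1, Lamb1 and Lamc1 together make laminin-111, an early laminin of the embryo, and all 3 rose. Lama1 (ENSMUSG00000032796, chr17:67697265-67822645, plus strand), the alpha chain that binds receptors at the cell surface, stood at 331 and 498 CPM in KO and at 199 and 239 CPM in WT. The KO libraries were far apart from each other, although both lay above WT. The mean was 415 ± 118 CPM in KO and 219 ± 27.8 CPM in WT (SD, n = 2 each), with a log2 fold change of 0.92 ± 0.18 (edgeR, adjusted p = 0.0181). It was 0.60 without KO replicate 2. Lamb1 (ENSMUSG00000002900, chr12:31265234-31329644, plus strand), the beta chain, stood at 276 and 306 CPM in KO and at 171 and 169.9 CPM in WT. Libraries of the same genotype lay close together, and the log2 fold change was 0.77 ± 0.10 (edgeR, adjusted p = 0.00321). Lamc1 (ENSMUSG00000026478, chr1:153218922-153332786, minus strand), the gamma chain of most laminins, stood at 478 and 554 CPM in KO and at 355 and 373 CPM in WT. The groups did not overlap, and the change was the smallest of the 3 chains, at 0.50 ± 0.11 (edgeR, adjusted p = 0.0313). Lamc1 did not pass without WT replicate 1 (edgeR, adjusted p = 0.253) or without WT replicate 2 (adjusted p = 0.215).

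Ratios between the laminin chains were compared within each library. Per Lamc1 count there were 0.693 and 0.900 Lama1 counts in KO and 0.562 and 0.639 in WT, so both KO libraries lay above both WT libraries. Per Lamc1 count there were 0.579 and 0.553 Lamb1 counts in KO and 0.482 and 0.455 in WT, again without overlap. Per Lamb1 count there were 1.20 and 1.63 Lama1 counts in KO and 1.17 and 1.41 in WT, and here the genotypes overlapped. With 2 libraries a genotype the smallest two-sided p of an exact permutation test is 0.333, so these ratios are given as values only. Among the other laminin genes, picked out after their values were seen, Lama5 averaged 118 ± 20.5 CPM in KO and 109 ± 17.5 CPM in WT (log2 fold change 0.11 ± 0.14). Lamb2 averaged 4.80 ± 1.17 CPM in KO and 3.26 ± 0.56 CPM in WT (0.56 ± 0.27), and neither passed the edgeR test.

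Nid1 (ENSMUSG00000005397, chr13:13437551-13512269, plus strand) encodes nidogen-1, which binds the laminin gamma-1 chain and collagen IV and so joins the networks. It was the only one of the 10 genes that fell. Its RefSeq window is shown for comparison with those of the collagen IV pair, with capitals again marking motif matches; its annotated start lies inside the span given by the deposited table.
Nid1, chr13:13437352-13437651, plus strand: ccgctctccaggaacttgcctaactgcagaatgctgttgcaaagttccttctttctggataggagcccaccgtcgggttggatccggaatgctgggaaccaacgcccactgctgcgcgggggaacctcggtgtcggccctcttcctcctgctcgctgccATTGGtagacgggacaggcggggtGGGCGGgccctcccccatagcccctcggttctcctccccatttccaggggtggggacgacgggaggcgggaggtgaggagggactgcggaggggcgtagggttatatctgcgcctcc
The window has a GC content of 64.7% and holds 1 GGGCGG and 1 CCAAT match, so the letters that the collagen IV windows hold are present here too. Nid1 stood at 66.1 and 80.7 CPM in KO and at 97.5 and 102 CPM in WT. Both KO libraries were below both WT libraries, and the mean was 73.4 ± 10.3 CPM in KO and 99.7 ± 3.21 CPM in WT (SD, n = 2 each). The log2 fold change was -0.44 ± 0.11 (edgeR, adjusted p = 0.0437), with -0.56 between the libraries of the pair with fewer counts and -0.34 in the pair with more. The call was lost without WT replicate 2 (edgeR, adjusted p = 0.161) and without KO replicate 1 (edgeR, adjusted p = 0.0719, log2 fold change -0.31). Relative to its laminin partner the gap was wider: per Lamc1 count there were 0.138 and 0.146 Nid1 counts in KO and 0.275 and 0.273 in WT. The paralog Nid2 (ENSMUSG00000021806, chr14:19751265-19811787), picked out after its values were seen, was at 363 and 345 CPM in KO and at 432 and 440.5 CPM in WT. Its groups did not overlap either, and its log2 fold change of -0.30 ± 0.10 did not pass (edgeR, adjusted p = 0.112).

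Hspg2 (ENSMUSG00000028763, chr4:137468769-137570630, plus strand) encodes perlecan, the heparan sulphate proteoglycan of basement membranes. It stood at 305 and 310.1 CPM in KO and at 272 and 261 CPM in WT. The groups did not overlap, with means of 307 ± 3.89 CPM in KO and 267 ± 8.07 CPM in WT (SD, n = 2 each). Its log2 fold change of 0.20 ± 0.10 did not pass the test (edgeR, adjusted p = 0.243). Of the other proteoglycan genes of basement membranes, picked out after their values were seen, Agrn (agrin) averaged 87.6 ± 4.38 CPM in KO and 99.96 ± 3.84 CPM in WT. Col18a1 (the collagen XVIII core protein) averaged 457 ± 32.6 CPM in KO and 432 ± 31.8 CPM in WT. Neither passed, at -0.19 ± 0.09 for Agrn and 0.084 ± 0.11 for Col18a1.

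Sparc (ENSMUSG00000018593, chr11:55394500-55423183, minus strand) encodes a secreted glycoprotein that binds collagens, including collagen IV. It stood at 167 and 172 CPM in KO and at 102 and 101 CPM in WT. The libraries of each genotype were nearly equal, with means of 169 ± 3.16 CPM in KO and 101 ± 1.04 CPM in WT (SD, n = 2 each). The log2 fold change was 0.74 ± 0.09 (edgeR, adjusted p = 0.00245), and it stayed between 0.72 and 0.76 when any 1 library was left out.

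The collagen maturation genes also rose, by different amounts. Serpinh1 (ENSMUSG00000070436, chr7:99345376-99353239, minus strand) encodes HSP47, the collagen chaperone of the endoplasmic reticulum. It stood at 26.7 and 27.1 CPM in KO and at 14.9 and 12.3 CPM in WT, with no overlap. The mean was 26.9 ± 0.32 CPM in KO and 13.6 ± 1.88 CPM in WT (SD, n = 2 each), a fold change of 1.99 and a log2 fold change of 0.99 ± 0.14 (edgeR, adjusted p = 0.00468). P4ha1 (ENSMUSG00000019916, chr10:59323296-59373304, plus strand) encodes a catalytic subunit of collagen prolyl 4-hydroxylase. It stood at 112 and 111 CPM in KO and at 87.7 and 82.6 CPM in WT. The gap between genotypes was small beside that of the collagen IV genes, with a log2 fold change of 0.39 ± 0.09 (edgeR, adjusted p = 0.0271). P4ha1 did not pass without WT replicate 1 (edgeR, adjusted p = 0.0861) or without WT replicate 2 (adjusted p = 0.274). Per Col4a1 count there were 0.341 and 0.250 P4ha1 counts in KO and 0.686 and 0.524 in WT, with both KO libraries below both WT libraries. Per Col4a1 count there were 0.0808 and 0.0610 Serpinh1 counts in KO and 0.117 and 0.0778 in WT, and the genotypes overlapped.

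**Figure D2:**
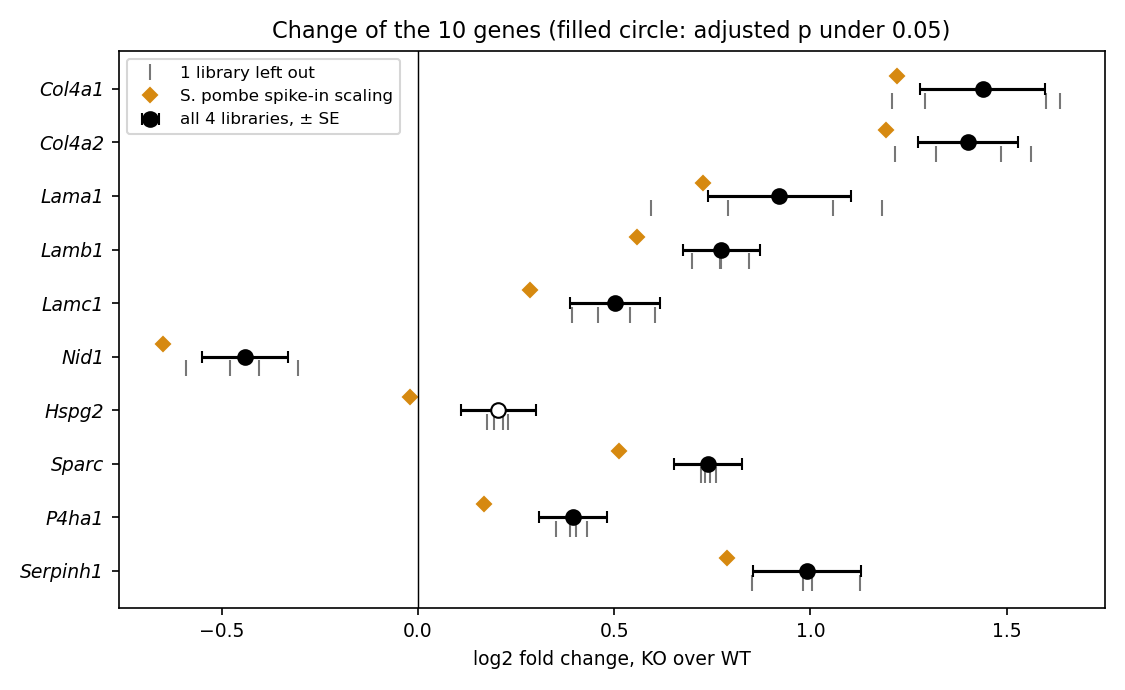
Log2 fold change of KO over WT for each of the 10 genes; black circles are the fit of all 4 libraries with TMM scaling (± SE, filled where the adjusted p is under 0.05), ticks the fits with 1 library left out, and orange diamonds the fit scaled to the S. pombe spike-in. Col4a1 and Col4a2 lie at 1.44 and 1.40, Nid1 at -0.44, and the diamonds lie below the circles for every gene, with that of Hspg2 at -0.019.

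Over the 8 promoter windows in the RefSeq table, which has none for Lama1 or Lamc1, GGGCGG was found in 7 (all but Sparc) and CCAAT in 4 (Col4a1, Col4a2, Lamb1 and Nid1). TATAAA was found in 1, that of P4ha1, where it lies after the start, and the GATA, Sox and AP-1 motifs in 0 of 8. GC content ran from 55.3% for Sparc to 74.0% for Col4a1, above the median of all promoters in each of the 8 windows. The Sparc window, chr11:55420031-55420330, lies wholly inside the deposited span of this minus-strand gene, which begins at 55423183. A window at that end was not searched.

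Scaled to the spike-in, the 10 genes kept the order of their log2 fold changes, but none passed. In this fit the S. pombe total, adjusted by TMM over S. pombe genes, was the library size, and the size factors behind the deposited normalized values were likewise those of the S. pombe counts. The median log2 fold change over all genes was then -0.23, a shift of -0.24 from the TMM scale. Called genes were 0.101% of all tested genes. Of the 10 genes, 0 had an adjusted p under 0.05 and 0 an unadjusted p under 0.05, against 3.78% of all tested genes unadjusted. DESeq2 in the authors' deposited table called 0 of the 10 (all adjusted p = 0.999, 0.0271% of genes called), with 2 at an unadjusted p under 0.05. These were Col4a1 (p = 0.0306) and Col4a2 (p = 0.0301), where 1.83% of genes passed, and the shrunken log2 fold changes in the authors' deposited table were 0.84 for Col4a1 and 0.83 for Col4a2. In the spike-in fit the log2 fold changes were 1.22 ± 0.80 for Col4a1, 1.19 ± 0.76 for Col4a2, 0.79 ± 0.65 for Serpinh1 and 0.73 ± 0.80 for Lama1. Nid1 was at -0.65 ± 0.74, and Hspg2 at -0.019 ± 0.79, with its sign turned. Relative to the median of all genes on that scale, Col4a1 stood at 1.45, Nid1 at -0.42 and Hspg2 at 0.21.

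The spread between libraries was larger on this scale, with a biological coefficient of variation of 0.363 against 0.0952 with TMM. Per 1e6 S. pombe counts, Col4a1 had 922 and 2096 counts in KO and 420.4 and 872 in WT. Col4a2 had 429 and 922 in KO and 205 and 385 in WT. Serpinh1 had 74.4 and 128 in KO and 49.1 and 67.9 in WT. In these 3 genes both KO libraries still lay above both WT libraries, as they did for 4.17% of all tested genes, and in the other 7 the genotypes overlapped. Replicate 2 was the higher in each genotype for all of these values. Within the pair of libraries with fewer counts and the pair with more, the log2 ratio per S. pombe count was 1.13 and 1.26 for Col4a1, 1.06 and 1.26 for Col4a2, -0.80 and -0.57 for Nid1, and -0.075 and 0.018 for Hspg2.

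Other genes of the same pathway, in lists also chosen with earlier results of these data known, went in both directions. In 6 lists of further basement membrane, collagen, receptor and protease genes, 115 genes were tested, of which 13 rose and 4 fell, and the median log2 fold change was 0.12. That is 14.78% called, against 8.07% of all tested genes, and without KO replicate 2 the number called in the 6 lists was 35, in a fit that called 16.4% of all tested genes.

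Of 27 tested genes of other basement membrane components (30 listed), 3 rose and 1 fell, with a median of 0.12. Tinagl1, a matricellular relative of a nephritis antigen, rose by 1.40 ± 0.32 on the log2 scale. It had 77 and 90 counts in KO and 38 and 27 in WT, and it did not pass without WT replicate 2 (edgeR, adjusted p = 0.156, log2 fold change 0.95). Ntn4, a netrin that binds laminin gamma chains, rose by 1.12 ± 0.19, to 9.19 ± 0.23 CPM in KO against 4.26 ± 0.49 CPM in WT (SD, n = 2 each). Lama3, the gene of an epithelial laminin alpha chain, fell, at -0.94 ± 0.16. It averaged 10.9 ± 1.52 CPM in KO and 20.8 ± 2.71 CPM in WT (SD, n = 2 each). The laminin beta chain gene Lamb3 had 55 and 39 counts in KO and 17 and 28 in WT and did not pass (edgeR, adjusted p = 0.0974); it was picked out after its values were seen. Without KO replicate 2 the number called in this list was 8.

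Of 22 other collagen folding and modifying enzymes, 2 rose and 0 fell, with a median of 0.045. P4ha2, the gene of another catalytic subunit of prolyl 4-hydroxylase, rose by 0.90 ± 0.13, to 28.3 ± 2.12 CPM in KO against 15.2 ± 1.66 CPM in WT. P3h2, a prolyl 3-hydroxylase that acts on collagen IV, rose by 0.88 ± 0.15, to 19.2 ± 1.77 CPM in KO against 10.6 ± 1.12 CPM in WT (SD, n = 2 each). P4hb, the shared beta subunit of prolyl 4-hydroxylase and picked out after its values were seen, was at 118 ± 11.5 CPM in KO and 101 ± 12.8 CPM in WT and did not pass. Without KO replicate 2 the list had 6 calls. Of 19 genes of collagen export and processing, 2 rose and 1 fell, with a median of 0.050. Bmp1, a protease that trims procollagens, rose by 1.02 ± 0.16, and of 30 tested genes within 1 Mb of it on chromosome 14, 13 rose and 0 fell, with a median log2 fold change of 0.59; their part in the result was not tested. Creb3l2, a transcription factor of the secretory pathway, rose by 0.57 ± 0.13 and did not pass without WT replicate 1 (edgeR, adjusted p = 0.0986). Pcolce2, an enhancer of procollagen trimming, fell (-0.55 ± 0.11). Without KO replicate 2 this list had 5 calls.

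Of 20 receptors of basement membrane proteins, 5 rose and 1 fell, with a median of 0.22. Itgb4, the beta subunit of a laminin-binding integrin, rose by 1.48 ± 0.24, to 8.86 ± 1.92 CPM in KO against 3.19 ± 0.45 CPM in WT. Bcam, a receptor for laminin alpha-5, rose by 0.77 ± 0.13. The collagen receptors Ddr1 and Ddr2 moved in opposite directions. Ddr1 stood at 42.3 and 24.6 CPM in KO and at 18.3 and 14.1 CPM in WT (1.04 ± 0.24, or 0.61 without KO replicate 1). Ddr2 stood at 10.4 and 10.2 CPM in KO and at 20.0 and 17.7 CPM in WT (-0.87 ± 0.14). The other two that rose, named after their values were seen, were Itgb1, the common beta subunit of collagen and laminin integrins, and its partner Itga3. Itgb1 stood at 352 and 382 CPM in KO and at 246 and 257 CPM in WT (0.55 ± 0.10), and it did not pass without WT replicate 1 or 2 (edgeR, adjusted p = 0.129 and 0.106). Itga3 averaged 62.9 ± 0.65 CPM in KO and 43.1 ± 0.89 CPM in WT (SD, n = 2 each, 0.55 ± 0.09). Without KO replicate 2 the list had 11 calls.

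Of 15 tested matrix proteases and inhibitors (16 listed), 1 rose and 1 fell, with a median of 0.23. Plat, the tissue plasminogen activator, rose by 1.11 ± 0.27, with 76 and 84 counts in KO and 26 and 53 in WT. It did not pass without WT replicate 1 (edgeR, adjusted p = 0.121). Adamts1, a protease that cuts proteoglycans, fell (-0.95 ± 0.18). Without KO replicate 1, and likewise without KO replicate 2, this list had 5 calls. Fibrillar and other collagens showed 0 calls among 12 tested genes (16 listed) in edgeR. Unadjusted, 2 had a p under 0.05, and DESeq2 called 0. The most abundant was Col5a1, at 36.6 ± 3.47 CPM in KO and 33.3 ± 3.15 CPM in WT (SD, n = 2 each). Its groups overlapped, and its log2 fold change of 0.14 ± 0.12 turned to -0.052 with spike-in scaling. Col11a1 averaged 8.31 ± 0.50 CPM in KO and 10.7 ± 1.56 CPM in WT (SD, n = 2 each), at -0.37 ± 0.18.

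**Figure D3:**
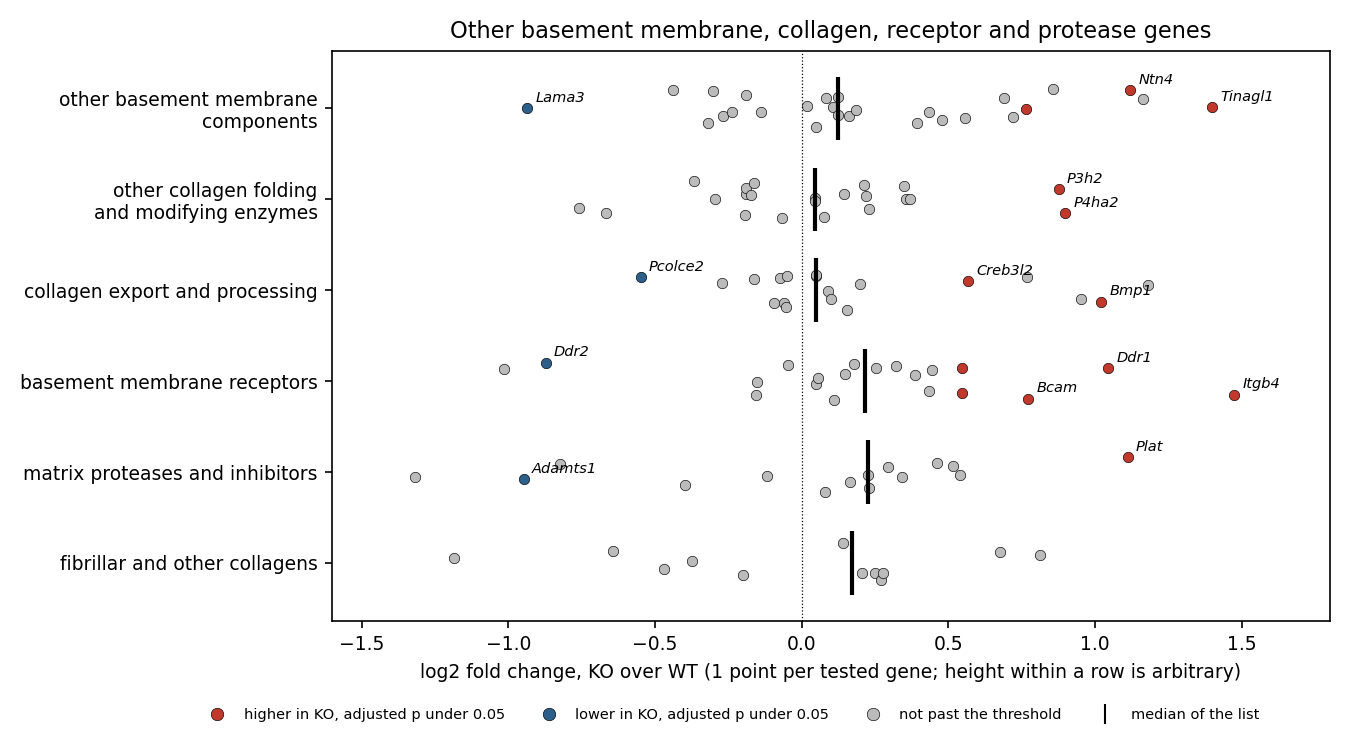
Log2 fold change of KO over WT for the tested genes of 6 further lists, 1 point per gene (red higher and blue lower at an adjusted p under 0.05, grey not past the threshold), with a bar at each list's median. The medians lie between 0.045 and 0.23, and 13 points are red and 4 blue.

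Genes around the 10 loci moved in both directions. Of 60 other tested genes that start within 400 kb of the start of one of the 10 genes, 4 rose and 4 fell, with a median log2 fold change of -0.0057. That is 13.3% called, against 8.07% of all tested genes. Among those that rose were Ptprm, Gm28960 and Wnt4, and those that fell were Nmnat2, Alpl, 1700016D06Rik and Gm12239, most of them named after their values were seen. The nearest tested genes on either side numbered 18, of which 2 rose and 0 fell. Among them was Ptprm, a receptor tyrosine phosphatase gene 342808 bases from Lama1. It stood at 48.7 and 70.2 CPM in KO and at 25.0 and 29.6 CPM in WT (1.12 ± 0.17). On the other side of Lama1, 20068 bases away, Arhgap28 was at -0.12 ± 0.10. Beside the collagen IV pair, Rab20 lies 4231 bases past the end of Col4a2 and had a log2 fold change of -0.18 ± 0.31. Next to Lamb1, Dld, 1633 bases away, was at -0.0046 ± 0.096, with 41.0 and 41.9 CPM in KO and 42.1 and 41.0 CPM in WT. Next to Serpinh1, Map6 was at -0.39 ± 0.12 and Gdpd5 at 0.65 ± 0.20, and next to Nid1, Gpr137b was at 0.015 ± 0.13 and Lyst at -0.22 ± 0.10. Arhgap28, Rab20, Dld, Map6, Gdpd5, Gpr137b and Lyst did not pass. A further 7 annotated genes overlap one of the 10, with at most 4 counts in any library, and the use of strand in counting was not given in the sources used here.

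**Figure D4:**
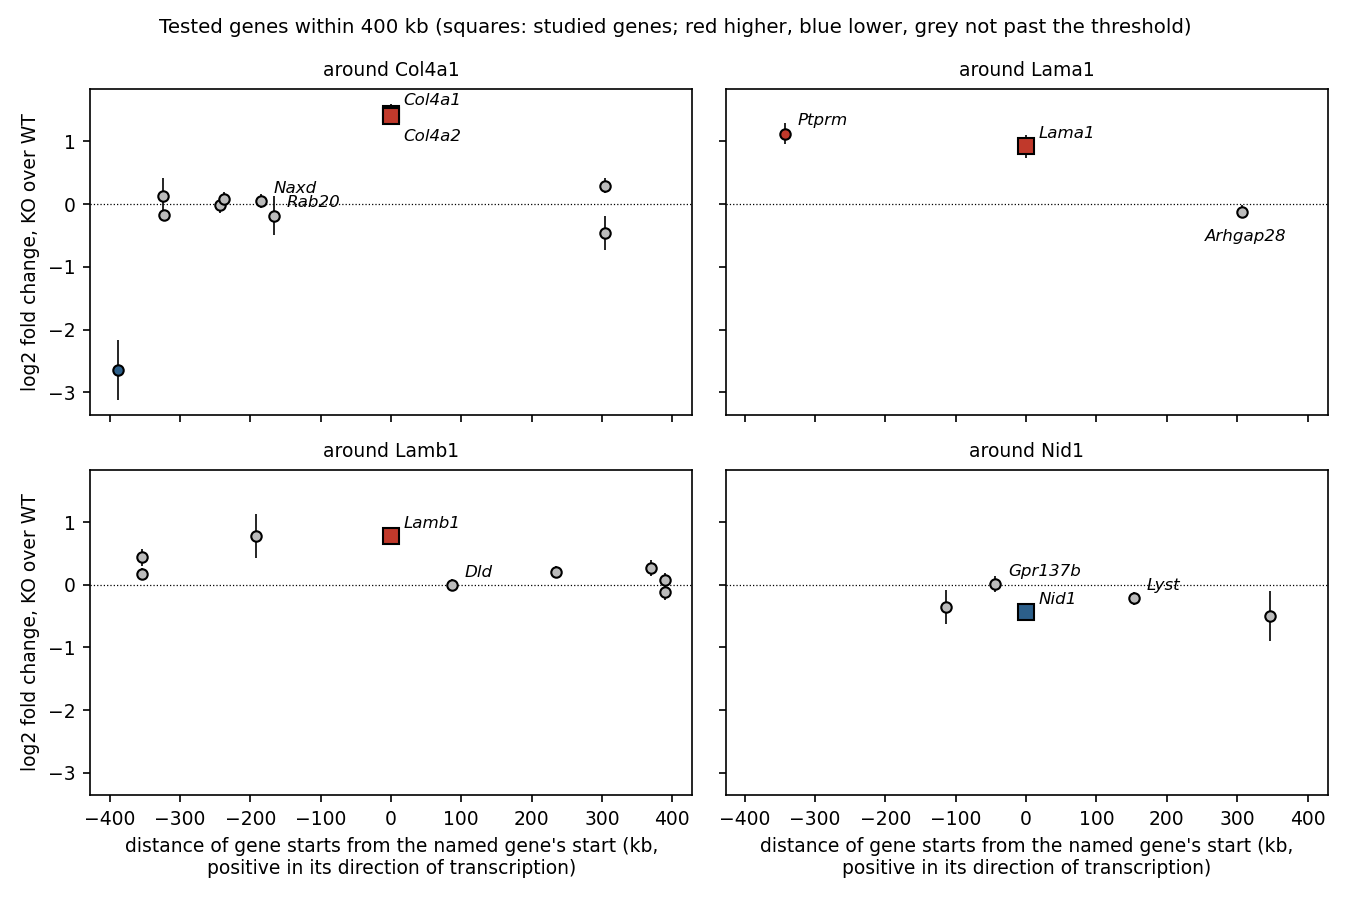
Log2 fold change of KO over WT (± SE) of tested genes against the distance of their starts from that of Col4a1, Lama1, Lamb1 or Nid1 (kb, positive in the direction of transcription); squares are genes of the studied set, red rose, blue fell, grey did not pass. Within 400 kb of Col4a1 only Col4a2 also rose, and near Lama1 Ptprm rose at 1.12 while Arhgap28 stood at -0.12.

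Markers of other cell types that ES cell cultures can hold gave calls in some lists and not in others. These lists were chosen with earlier results of these data known. Over all tested genes, edgeR called 4.05% higher in KO and 4.02% lower. Of 14 primitive endoderm markers 6 rose and 0 fell, with a median log2 fold change of 1.08 and a summed level of 541 and 718 CPM in KO and 431 and 491 CPM in WT. Sox17 (1.46 ± 0.24), Pdgfra (1.30 ± 0.22), the proteoglycan gene Srgn (1.30 ± 0.25) and Gata6 (1.24 ± 0.23, or 0.78 without KO replicate 2) rose most. Gata6 stood at 42.8 and 74.4 CPM in KO and at 22.2 and 27.5 CPM in WT. Replicate 2 was the higher in each genotype, as it was for Lama1, for Col4a1 and for Nid1, which fell. The visceral endoderm genes Cubn, Amn, Lrp2 and Hnf4a, which are in the same list, did not pass. Most of the summed level of the list came from Lrp2, at 325 and 378 CPM in KO and 311 and 318 CPM in WT (0.16 ± 0.11). Without KO replicate 1, where 10.4% of all tested genes were called, the list had 10 calls. Of 9 parietal endoderm markers 2 rose and 0 fell, namely Krt19 (1.76 ± 0.20) and Plat. The median log2 fold change of the 9 was 0.63, and 7 of the 9 were positive. The summed level of that list was 159 and 166 CPM in KO and 180.2 and 159.7 CPM in WT. Most of the sum came from Cdh2 (mean 85.0 CPM in KO, 109 in WT) and Vim (39.7 and 41.1), named after their values were seen. The defining marker Thbd had 17 and 32 counts in KO and 6 and 11 in WT and did not pass (edgeR, adjusted p = 0.0529).

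Of 11 tested trophoblast markers (12 listed) 5 rose and 0 fell, led by Cdx2 (2.21 ± 0.52), Krt8 (1.83 ± 0.19), Krt18 (1.76 ± 0.14) and Krt7 (1.30 ± 0.29), and without WT replicate 2 the list had 2 calls, with Cdx2, Krt7 and Gata3 lost (edgeR, adjusted p = 0.225, 0.131 and 0.146), the last named after its values were seen. Cdx2 was also lost without KO replicate 1 (edgeR, adjusted p = 0.136) and Krt7 without WT replicate 1 (edgeR, adjusted p = 0.0508). Hand1 (1.00 ± 0.43) and Ascl2 (1.14 ± 0.47) did not pass, nor did Eomes (0.15 ± 0.26), Plet1 (-0.17 ± 0.27), Tead4 (-0.21 ± 0.27) and Tfap2c (-0.43 ± 0.15). Elf5, with at most 5 counts in any library, was not tested. These genes were named after their values were seen. The summed level of the list was 146 and 201 CPM in KO and 139 and 151 CPM in WT. Large parts of it came from Tead4 (mean 57.5 CPM in KO, 66.7 in WT) and Tfap2c (34.1 and 46.3). Cdx2 had 20 and 16 counts in KO and 4 and 4 in WT. Of 15 fibroblast markers 8 were tested and 0 passed in edgeR. Unadjusted, 3 had a p under 0.05, and DESeq2 called 0. Dcn, Lum, Postn and Fap had at most 3 counts in any library, and the summed level was 49.6 and 40.6 CPM in KO and 45.5 and 35.7 CPM in WT. The most abundant, Fbn1, averaged 33.7 ± 4.72 CPM in KO and 30.5 ± 4.80 CPM in WT (SD, n = 2 each, log2 fold change 0.15 ± 0.15), a sign that turned with spike-in scaling (-0.087) and without WT replicate 2 (-0.0095). Of 6 tested endothelial markers (10 listed) Flt1 rose (1.00 ± 0.12) and Pecam1 fell (-0.67 ± 0.12). The summed level of the list was 157 and 163 CPM in KO and 183 and 196 CPM in WT. Most of that sum came from Pecam1 (mean 64.1 CPM in KO, 102 in WT) and Tek (49.3 and 49.8). Emcn, Egfl7, Tie1 and Cldn5 had at most 9 counts in any library and were not tested. Tek and these untested genes were named after their values were seen. The part of any of these cell types in the change of the 10 genes was not tested.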

How the data were processed

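TT-seq libraries of 2 Supt3 KO and 2 Supt3 WT mouse ES cell samples were analysed from the deposited gene tables. Per the labels' protocols, RNA carrying 4SU was purified, sheared and turned into strand-specific libraries with no ribodepletion, after S. pombe 4SU RNA had been added; the molecule is given as polyA RNA. The submitters' processing notes name STAR 2.5.3, HTSeq 0.6.1p1, cutadapt 1.10, bcl2fastq 2.20.0.422, DESeq2 1.16.1 and mm10. What feature was counted, on which strand and with which annotation was not given in the sources used here. The authors deposited a raw count for each of 54146 mouse genes and 7259 genes of S. pombe. Their deposited comparison table repeats the mouse counts and adds normalized signal values (each library's counts over one size factor, equal to the median-of-ratios factor of the S. pombe counts within a relative difference of 1e-06), shrunken log2 fold changes, and p-values.

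From these, counts were tested with edgeR 4.0.16 in R 4.3.3 (quasi-likelihood test, TMM factors of mouse genes, filterByExpr with a minimum count of 10, Benjamini-Hochberg over 16789 genes, threshold 0.05). SEs are |log2 fold change| over the root of the F statistic. Alternatives were DESeq2 size factors, spike-in library sizes, no filter, a mean of at least 2 CPM, DESeq2 1.42.0, limma 3.58.1 voom, each library left out, and a batch term that sets the shallower KO and WT libraries against the deeper ones, a split defined from depth. Where 1 library is left in a genotype, its spread is taken from the other genotype. Replicates were numbered in accession order and are not paired. Libraries of the same genotype differed by a chi-square of 9.62 (KO) and 5.55 (WT) per degree of freedom, so none was a duplicate. The edgeR fit was tested on simulated data. Library totals were 17.7 to 22.9 M counts (M, 1e6) over both species. Removal of PCR copies was not given in the sources used here.

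The genes, the further lists and the marker lists were chosen with earlier results of these data known. Named were the 10 genes, Supt3, up to 4 called genes of each list with the largest change or, in a list with no call, its 2 highest in CPM, and the nearest tested neighbours and overlapping genes; other genes are said to be chosen after their values were seen. The values of 1 called gene that enters the counts are not reported here. Promoter sequences are from RefSeq, GRCm38.p6, and spans are those of the deposited table. Symbols matched for all listed genes except Ctage5, an older name of the listed Mia2.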

Additional observations from a re-analysis of the deposited data

How the results depend on the processing

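The number of genes called in KO against WT, 1355 with TMM scaling, was 17 with spike-in library sizes, 2460 with no filter and 4307 with the term for library depth, which leaves 1 residual degree of freedom, and it ran from 818 to 2824 with 1 library left out (lowest without WT replicate 2, highest without KO replicate 2). Of the 10 genes, 0 were called with spike-in library sizes and 6 to 9 with 1 library left out. All of the same 9 were called under DESeq2 size factors, no filter, a mean of at least 2 CPM, DESeq2 and limma voom, where 7.84% to 9.06% of all tested genes were called, and with the depth term Hspg2 was called as well (edgeR, adjusted p = 0.0167). Calls in the 6 further lists, 17 with TMM, were 0 with spike-in library sizes, 27 with no filter, 45 with the depth term and 15 to 35 with 1 library left out. Signs turned with spike-in library sizes for Hspg2 (-0.019), Col5a1 (-0.052) and Fbn1 (-0.087). On that scale the median log2 fold change over all genes was also lower, at -0.23. Mouse counts per S. pombe count were 2.71 and 4.86 in KO and 3.25 and 5.60 in WT. With 1 library left out Fbn1 ran from -0.0095 to 0.31 (lowest without WT replicate 2). The cause of these changes was not tested. Outside spike-in scaling, the highest adjusted p over the alternatives was 0.00303 for Col4a1, 0.00171 for Col4a2, 0.0225 for Lama1, 0.0102 for Lamb1, 0.253 for Lamc1, 0.161 for Nid1, 0.00503 for Sparc, 0.274 for P4ha1 and 0.00658 for Serpinh1 (edgeR, DESeq2 or limma voom). No paired analysis was possible because the labels give no replicate numbers and no pairing; the pairs behind the depth term were defined from read depth. With 2 libraries a genotype and no separate cultures stated, no detection limit was computed for single genes.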

Other observations

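Genes beyond the nearest neighbours of the 10 loci were picked out after their values were seen. On chromosome 1, the antisense transcript Gm28960 (chr1:153066481-153089507, minus strand) stood at 23.99 and 21.1 CPM in KO and at 10.2 and 7.99 CPM in WT, a log2 fold change of 1.32 ± 0.16 (edgeR, adjusted p = 0.00297). It lies within the span of Nmnat2 (chr1:152954993-153119261, plus strand), a gene of NAD synthesis, which stood at 47.9 and 55.7 CPM in KO and at 66.4 and 72.8 CPM in WT (log2 fold change -0.42 ± 0.11). Nmnat2 passed with all libraries (edgeR, adjusted p = 0.0452) but not without WT replicate 2 (adjusted p = 0.260) or without KO replicate 1 (adjusted p = 0.0685). The genes face each other on opposite strands, and without a stated strand setting their reads cannot be told apart.

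On chromosome 4, the signalling gene Wnt4 (chr4:137277489-137299726, plus strand) and Alpl (chr4:137741733-137796384, minus strand), the alkaline phosphatase gene used as a mark of ES cells, lie on either side of Hspg2. Wnt4 stood at 8.44 and 9.69 CPM in KO and at 4.10 and 4.18 CPM in WT (log2 fold change 1.13 ± 0.19, edgeR, adjusted p = 0.0102). Alpl stood at 41.8 and 45.4 CPM in KO and at 60.8 and 66.9 CPM in WT (log2 fold change -0.55 ± 0.10, edgeR, adjusted p = 0.0134) and did not pass without WT replicate 2 (adjusted p = 0.0712). Hspg2 itself, at 0.20 ± 0.10, did not pass. Nor did the tested genes that start closer to it, Cdc42 (0.32) and 2810405F17Rik (-0.064) on the side of Wnt4, and Usp48 (-0.27) and Rap1gap (-0.53) on the side of Alpl.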
